A study of Mus musculus with 12 samples.

Results

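Long introns of mouse N2A neuroblastoma cells were examined for retention after depletion of the splicing factor Puf60. A long intron is taken here as an intron of 5000 nt or more in the deposited splicing table, and it was kept where at least 10 reads bore on it in each of the 12 libraries. This rule kept 13600 of 27327 long introns (49.8%), in 5401 genes, with a median length of 9574 nt and a longest of 892220 nt. The cells were a pair of stable Flp-In rtTA3 lines that carried a doxycycline-inducible, siRNA-resistant Puf60 cDNA with an N-terminal 3xFlag tag. In the pEx5 line the cDNA contained the alternative exon 5 of Puf60, and in the mEx5 line it lacked it. Each line gave 3 groups of 2 libraries, named A and B. Induction cells received the Puf60 siRNA at 15 nM and doxycycline at 2 µg/ml for 24 h, knockdown cells the Puf60 siRNA alone, and control cells a non-targeting siRNA. All cells, controls included, carried the transgene and were harvested after 48 h. Doxycycline was never combined with the non-targeting siRNA, so the drug and the cDNA cannot be told apart, and the lines may differ in more than exon 5. The series is described as duplicated, but nothing says that A and B came from separate cultures, and the p-values rest on the spread between these libraries alone, which may be technical. The sample descriptions call the doxycycline libraries uninduced, against their treatment field. The treatment field was followed, and in the authors' deposited table Puf60 stood at 246 RPKM in induction, 22.1 in knockdown and 107 in control cells of the pEx5 line, and at 202, 25.2 and 103 RPKM in the mEx5 line.

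An intron is removed when the spliceosome joins its 5′ splice site, at the upstream exon, to its 3′ splice site, at the downstream exon. Puf60 is related to U2AF, the factor that binds the pyrimidine-rich tract before the 3′ splice site. In a long intron the ends lie far apart, the intron can hold further exons, transcript starts and polyadenylation sites, and a transcript that begins or stops inside it carries only one of its ends.

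Retention was given as percent spliced in (PSI), the percentage of reads that keep the intron. It is the mean of the reads across its upstream and downstream ends, divided by that mean plus the reads that join the flanking exons, which are called exon-exon reads here. Positions are as deposited. Their assembly is not stated, and intron numbers and sequences were therefore taken from GENCODE vM21 transcripts by gene and exact intron length, which placed 13465 of the 13600 introns (99%).

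The exon-exon junctions below are those of the introns the results turn on, and show what a transcript reads through when its flanking exons are joined directly. A transcript that includes an exon inside the intron does not hold this junction. The last 20 bases of the upstream exon are in lower case and the first 20 bases of the downstream exon in capitals.
Stac, intron 2 of 10: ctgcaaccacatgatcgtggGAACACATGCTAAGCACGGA
Mbtd1, intron 15 of 15: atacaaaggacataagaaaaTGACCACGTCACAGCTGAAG
Wdr76, intron 12 of 12: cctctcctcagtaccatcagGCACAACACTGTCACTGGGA
Epb4.1l2, intron 14 of 19: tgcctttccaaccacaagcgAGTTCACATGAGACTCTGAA
Gnao1, intron 6 of 8: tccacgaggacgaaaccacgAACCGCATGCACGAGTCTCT
Cspp1, intron 7 of 29: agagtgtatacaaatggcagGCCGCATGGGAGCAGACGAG
Grip1, intron 9 of 23: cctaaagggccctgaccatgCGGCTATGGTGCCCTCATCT
Smpd4, intron 10 of 19: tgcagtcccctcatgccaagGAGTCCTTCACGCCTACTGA
Snrnp48, intron 4 of 8: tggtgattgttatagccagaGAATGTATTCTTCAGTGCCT

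Alternative exons that lie inside the introns of Epb4.1l2, Gnao1, Grip1 and Smpd4 are printed whole in lower case, because their inclusion moved with the knockdown as described further on.
Epb4.1l2, exon of 54 nt: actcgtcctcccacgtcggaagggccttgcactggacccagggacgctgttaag
Gnao1, exon of 154 nt: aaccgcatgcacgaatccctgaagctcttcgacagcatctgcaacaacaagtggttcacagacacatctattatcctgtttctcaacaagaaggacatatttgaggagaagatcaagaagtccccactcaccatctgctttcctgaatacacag
Grip1, exon of 156 nt: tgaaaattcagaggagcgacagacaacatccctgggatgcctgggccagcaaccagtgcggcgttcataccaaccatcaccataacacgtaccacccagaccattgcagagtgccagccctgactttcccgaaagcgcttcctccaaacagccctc
Smpd4, exon of 87 nt: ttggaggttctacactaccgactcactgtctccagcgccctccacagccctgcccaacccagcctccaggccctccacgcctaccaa
The Gnao1 exon starts much like the exon that follows the intron: 18 of their first 20 bases are identical.

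Nearly all long introns were removed efficiently in these cells. Averaged over the 12 libraries, 10921 of the 13600 introns (80.3%) had a PSI under 1, and 2098 had a PSI of 0 in every library. The median mean PSI was 0.197, the 90th percentile 2.27, the 95th 4.55 and the 99th 23.8. An intermediate PSI, 5 to 95 on average, was found for 612 introns, and 50 introns averaged 50 or more. The libraries held 22778173 to 41330139 exon-exon reads over all introns, and the median long intron had 95 to 162 reads per library.

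The level of retention over all long introns was slightly higher in knockdown than in control libraries. PSI averaged 1.51 and 1.36 in pEx5 knockdown libraries A and B, against 1.15 and 1.30 in pEx5 control libraries, and 1.53 and 1.38 in mEx5 knockdown libraries, against 1.19 and 1.26 in mEx5 control libraries. The share of long introns with a PSI of 5 or more was 5.90% and 5.35% in pEx5 knockdown, 6.02% and 5.38% in mEx5 knockdown, 4.24% and 4.79% in pEx5 control and 4.49% and 4.72% in mEx5 control libraries. The 4 knockdown libraries lay above the 4 control libraries on both measures, with library A above library B in knockdown and below it in control cells of each line. The induction libraries did not lie with the control libraries: their shares were 5.34% and 5.52% in pEx5 and 5.59% and 6.02% in mEx5 cells, above every control library. The deepest library, pEx5 control A, had the lowest share, and the shallowest, mEx5 induction B, shared the highest. The part of depth in these shares was not tested, and no p is given for an average over the introns.

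The upstream end carried most of this shift. Reads across the upstream end numbered 7.38 and 7.28 per 1000 exon-exon reads in pEx5 induction and 7.35 and 7.75 in mEx5 induction, 7.80 and 6.64 in pEx5 knockdown and 8.12 and 7.01 in mEx5 knockdown, and 5.84 and 6.25 in pEx5 control and 6.07 and 6.37 in mEx5 control libraries. All 8 libraries with the Puf60 siRNA exceeded the 4 controls. At the downstream end the values were 5.54 and 5.81 in pEx5 induction and 6.24 and 6.19 in mEx5 induction, 6.08 and 5.65 in pEx5 knockdown and 6.36 and 5.68 in mEx5 knockdown, and 4.88 and 5.96 in pEx5 control and 5.18 and 5.49 in mEx5 control libraries. Here the groups overlapped, since pEx5 control B lay above both B libraries of the knockdown.

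**Figure D1:**
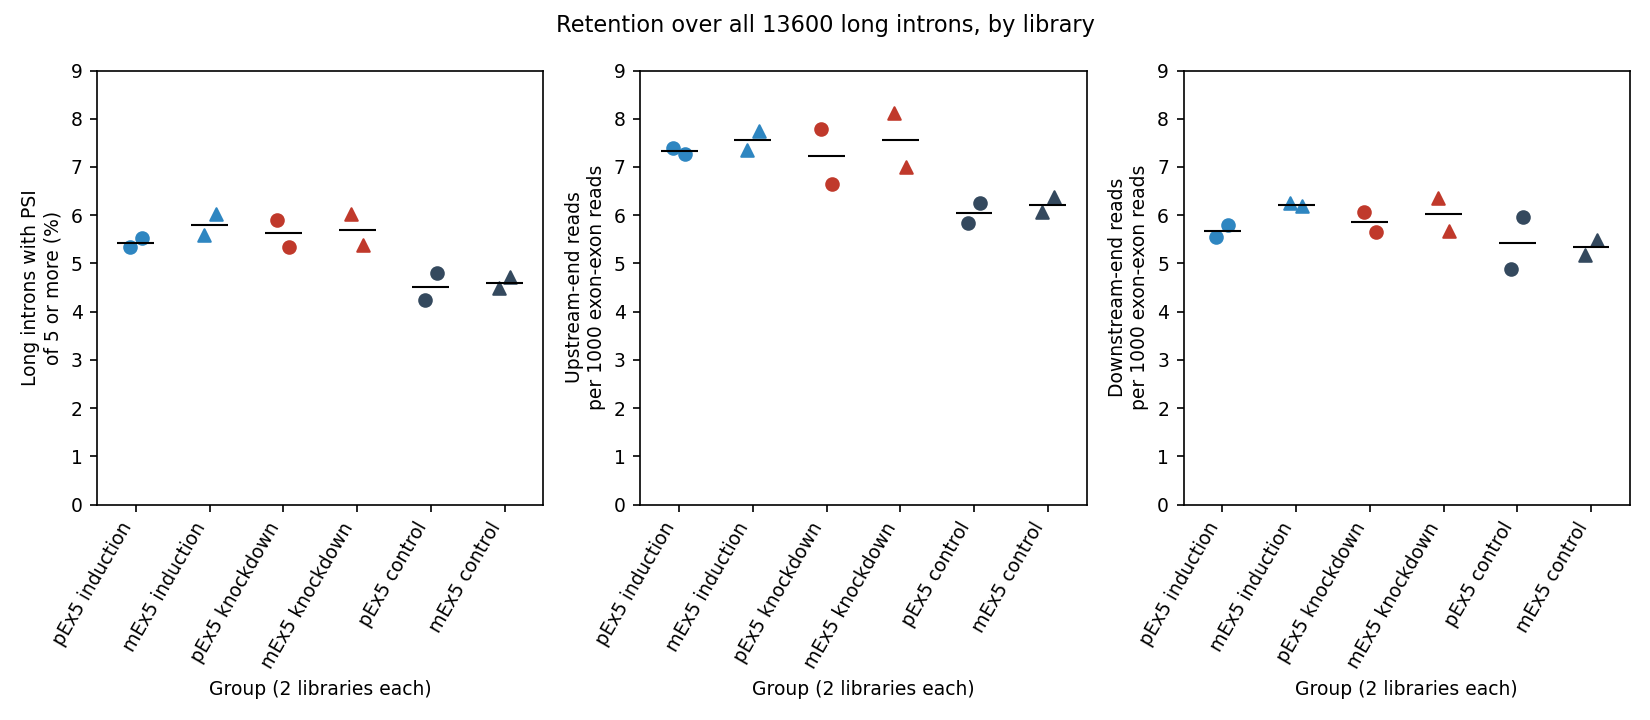
Each point is a library (circles pEx5, triangles mEx5) and each line the mean of a group of 2. The panels show the percentage of the 13600 long introns with a PSI of 5 or more, and the reads across the upstream and downstream intron ends per 1000 exon-exon reads; the control libraries are lowest in the first and second panels, and overlap with the others in the third.

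Mean PSI was lowest in introns of 50 kb and more, and group means were higher in knockdown than in control cells in each of 4 classes of long introns. Libraries overlapped in introns of 20 to 50 kb, where mean PSI was 1.21 in pEx5 knockdown B and 1.24 in pEx5 control B. In introns of 5 to 10 kb PSI averaged 1.51 ± 0.118 in pEx5 knockdown and 1.24 ± 0.129 in pEx5 control (SD, n = 2 each), and 1.53 ± 0.139 in mEx5 knockdown and 1.23 ± 0.0650 in mEx5 control. In introns of 50 kb and more it averaged 0.904 ± 0.0813 in pEx5 knockdown and 0.710 ± 0.0286 in pEx5 control, and 0.891 ± 0.0376 in mEx5 knockdown and 0.769 ± 0.0627 in mEx5 control. The longest class was no longer the lowest when reads were pooled over the introns of a class. Pooled PSI in introns of 50 kb and more was 0.900 in pEx5 knockdown against 0.679 in pEx5 control, and 0.818 in mEx5 knockdown against 0.638 in mEx5 control. In introns of 5 to 10 kb it was 0.692 in pEx5 knockdown against 0.610 in pEx5 control, and 0.721 in mEx5 knockdown against 0.612 in mEx5 control. The pEx5 libraries overlapped there, with 0.647 in knockdown B and 0.656 in control B. The longest class was also the one where the downstream end stood out, with 11.4 reads per 1000 exon-exon reads in pEx5 knockdown against 8.51 in pEx5 control, and 9.35 in mEx5 knockdown against 7.20 in mEx5 control. Introns of 1 to 5 kb had a higher PSI, 1.98 in pEx5 knockdown against 1.64 in pEx5 control and 2.04 in mEx5 knockdown against 1.66 in mEx5 control.

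Single introns were tested with limma on the natural log odds of intron-keeping against intron-lacking reads, fitted to all 222055 splicing events with enough reads, with p-values adjusted by the Benjamini-Hochberg method over all of them. A call required an adjusted p under 0.05 together with a change of 10 or more points in PSI. Over both lines 35 of the 13600 long introns were called on knockdown (0.257%), 23 higher (0.169%) and 12 lower (0.0882%). Of the 79229 shorter introns, 0.387% were called higher and 0.101% lower, 0.488% in all. Of all events, 0.311% were called higher and 0.89% lower, 1.2% in all. The share of long introns called higher was thus below that of shorter introns and of all events, and the difference between these shares was not tested. A fall of 10 points can only be measured from a PSI of 10 or more, which few long introns had. By adjusted p alone, 219 long introns were higher (1.61%) and 54 lower (0.397%), against 2.32% and 0.596% of shorter introns.

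The called introns were mostly of moderate length. They included 18 higher and 9 lower of 7129 introns of 5 to 10 kb, 3 higher and 2 lower of 3570 of 10 to 20 kb, and 2 higher and 1 lower of 2116 of 20 to 50 kb, and the other 785 introns were of 50 kb and more. In the pEx5 line alone 18 long introns were called on knockdown (0.132%), against 0.29% of shorter introns and 0.829% of all events. In the mEx5 line alone 8 were called (0.0588%), against 0.197% of shorter introns and 0.579% of all events. Between the control libraries of the lines limma called 0 long introns, with 1066 at an unadjusted p under 0.05 and 7 at an adjusted p under 0.05 alone, and 0.00585% of all events. Without mEx5 control B it called 3. In 21 of the 23 introns called higher the 4 knockdown libraries did not overlap the 4 control libraries, the exceptions being 4930422G04Rik and Slc25a28, and in 11 of the 12 called lower they did not overlap, the exception being Lrba. The introns were called on these same values, so the lack of overlap describes them and is no test. It was not counted over all long introns.

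Among the long introns that rose on knockdown, Stac stands for those read from the downstream end. Stac encodes an adaptor protein of voltage-gated calcium channels, and its intron of 27884 nt (chr9:111509426-111537309) was the longest of those that rose. Its PSI was 31.7 and 28.4 in pEx5 knockdown and 33.3 and 26.7 in mEx5 knockdown, against 0.85 and 2.64 in pEx5 control and 3.66 and 1.62 in mEx5 control. All knockdown libraries were far above all controls, by 27.9 points (log-odds difference 2.86 ± 0.27 SE, limma adjusted p = 0.00259). Both kinds of read moved. Reads across the downstream end were 49, 46, 48 and 33 in the 4 knockdown libraries against 2, 5, 7 and 1 in the controls. The exon-exon reads were 56, 58, 48 and 48 in knockdown against 117, 129, 92 and 91 in control libraries. The upstream end held 17 of the 235 end reads, all 12 libraries together. Another gene on the same strand overlaps this intron, and its reads cannot be told apart by strand.

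Mbtd1 encodes a chromatin reader of the TIP60 acetyltransferase complex, and the intron called was its last, of 9816 nt (chr11:93795273-93805088). Its PSI was 53.8 and 47.8 in pEx5 knockdown and 40.2 and 34.5 in mEx5 knockdown, against 16.6 and 18.6 in pEx5 control and 15.4 and 17.2 in mEx5 control. The groups did not overlap, with a rise of 27.2 points (log-odds difference 1.33 ± 0.15 SE, limma adjusted p = 0.00526). Both kinds of read moved: the exon-exon reads were 43, 60, 64 and 73 in knockdown libraries, against 126, 138, 102 and 118 in control libraries, while the downstream-end reads were 87, 97, 68 and 72 against 46, 54, 35 and 46.

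The last intron of Wdr76, a gene for a WD-repeat protein, is 5140 nt long (chr2:121362897-121368036) and was read from both ends. Its PSI was 15.5 and 18.1 in pEx5 knockdown and 14.4 and 13.8 in mEx5 knockdown, against 1.27 and 2.88 in pEx5 control and 1.13 and 1.23 in mEx5 control. The groups were well apart, with a rise of 13.8 points (log-odds difference 2.31 ± 0.18 SE, limma adjusted p = 0.00131). Upstream-end reads were 16, 13, 8 and 9 in knockdown against 1, 1, 0 and 3 in control libraries, and downstream-end reads 24, 35, 32 and 17 against 3, 7, 3 and 2.

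Cspp1 encodes a protein of centrosomes and cilia, and its intron of 8039 nt (chr1:10056902-10064940) had a PSI of 53.3 and 53.3 in pEx5 knockdown and 46.9 and 52.9 in mEx5 knockdown, against 18.2 and 16.4 in pEx5 control and 18.3 and 30.5 in mEx5 control. Its PSI rose by 30.8 points (limma adjusted p = 0.00951), and 192 of its 249 end reads lay at the upstream end. The exon-exon reads were 7, 7, 17 and 8 in knockdown against 36, 46, 47 and 33 in control libraries. End reads overlapped between the groups. Upstream they were 16, 16, 19 and 15 in knockdown against 12, 12, 14 and 24 in control libraries, and downstream 0, 0, 11 and 3 against 4, 6, 7 and 5.

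A further group of rising introns was read almost wholly from the upstream end. Ccbl1, a kynurenine aminotransferase gene, had the largest rise of the called introns, in its first intron of 7473 nt (chr2:30053680-30061152). Its PSI was 37.0 and 40 in pEx5 knockdown and 60 and 52.4 in mEx5 knockdown, against 15.4 and 13.0 in pEx5 control and 1.89 and 3.45 in mEx5 control. The rise was 38.9 points (log-odds difference 2.27 ± 0.21 SE, limma adjusted p = 0.00257), and all 91 end reads lay at the upstream end. In 4930402H24Rik 403 of 403 end reads were upstream, and PSI was 39.5 and 42.9 in pEx5 knockdown and 50.5 and 50 in mEx5 knockdown, against 24.8 and 30.3 in pEx5 control and 18.8 and 21.9 in mEx5 control (rise of 21.8 points, adjusted p = 0.00457). Nupl1, a gene of the nuclear pore, had 1597 upstream-end reads and 21 downstream-end reads. Its PSI was 27.0 and 32.8 in pEx5 knockdown and 35.6 and 32.5 in mEx5 knockdown, against 13.9 and 12.8 in pEx5 control and 13.9 and 13.6 in mEx5 control (rise of 18.4 points, adjusted p = 0.00307). Dock2, which encodes an activator of Rac known from blood cells, stood at 81.8 to 88.3 in knockdown and 60.1 to 69.0 in control libraries (rise of 20.4 points, adjusted p = 0.0254).

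The remaining rises were of 10.3 to 38.1 points. Zfp788, a zinc finger gene, was at 57.3 to 76.4 in knockdown and 15.6 to 35.7 in control libraries. The intron of 1700012B15Rik was at 72.7 to 92.0 and 42.9 to 54.1 in the same order. Atp5s was at 47.4 to 57.3 in knockdown and 19.2 to 40 in control libraries. Cacna1c, which encodes the pore of an L-type calcium channel, was at 12.1 to 22.0 in knockdown and 0 to 4.55 in control libraries. Baz1b, a chromatin remodelling gene, was at 35.6 to 41.4 in knockdown and 14.1 to 29.0 in control libraries. Rises of 10.3 to 18.8 points were also called in 2010012O05Rik, Fam13c, Cgrrf1, Gin1, Nt5m, 4930422G04Rik and Slc25a28. Genes on the opposite strand overlap the intron of Fam13c. Whether the authors' counting used the strand is not given in the sources used here, and without it the reads of overlapping genes cannot be told apart. Other genes on the same strand overlap the introns of 4930402H24Rik, Nupl1 and Cgrrf1, and strand would not separate their reads.

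**Figure D2:**
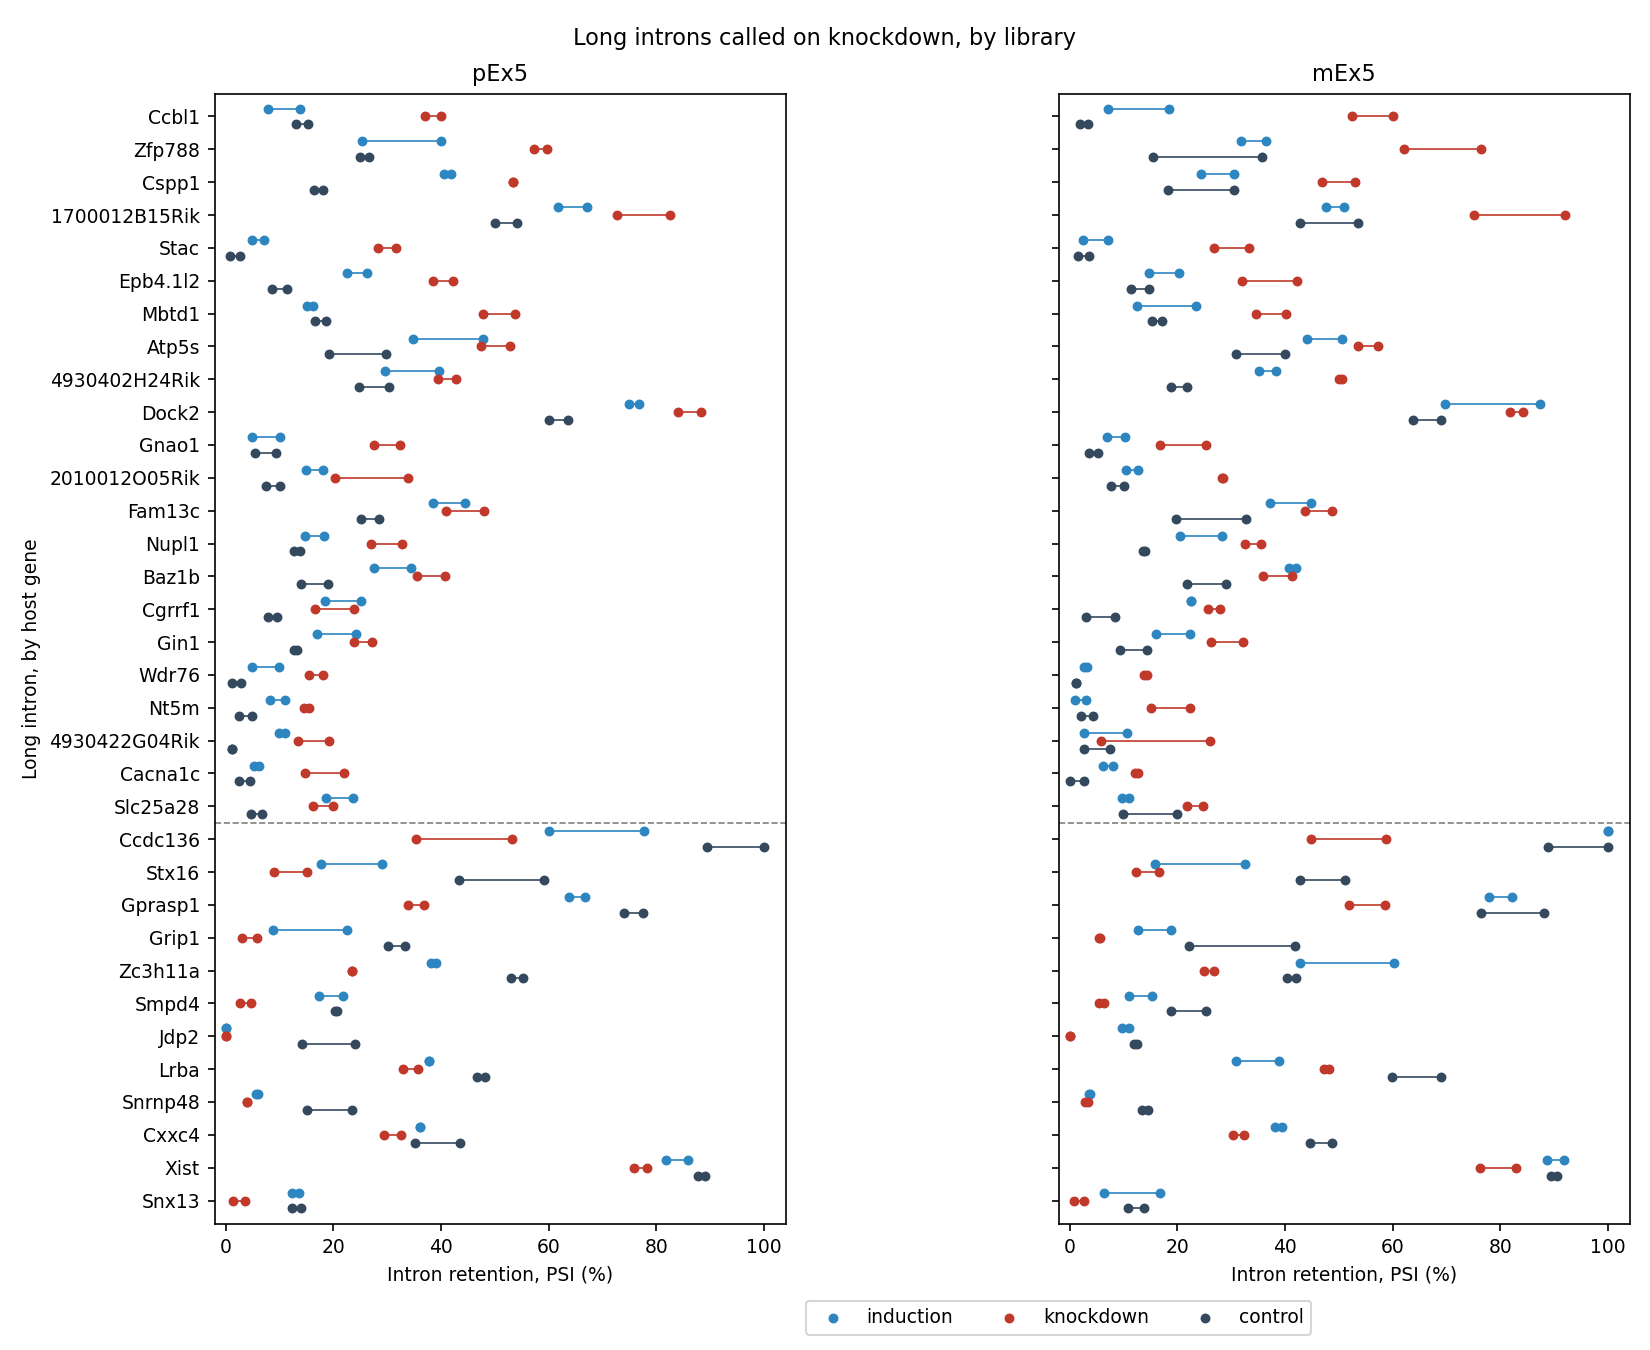
Retention of 34 of the 35 long introns called on knockdown, as PSI in percent, with a point for each library and a line joining the 2 libraries of a group; introns above the dashed line were called higher and those below it lower, each in order of the PSI difference over both lines. The median of the 23 higher introns was 37.0 and 32.8 in pEx5 knockdown libraries against 13.3 and 12.7 in pEx5 control libraries.

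The median PSI of the 23 higher introns was 18.2 and 18.6 in pEx5 induction and 20.3 and 16.0 in mEx5 induction, 37.0 and 32.8 in pEx5 knockdown and 35.6 and 32.5 in mEx5 knockdown, and 13.3 and 12.7 in pEx5 control and 10.2 and 14.4 in mEx5 control libraries. The median over all long introns lay between 0 and 0.06 in every library. The called introns were chosen by the knockdown and control values, so these medians describe them and are no test.

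Of the 12 long introns that fell, 8 had more exon-exon reads in every knockdown library than in any control library, the exceptions being those of Jdp2, Lrba, Cxxc4 and Snx13. More exon-exon reads lower the PSI by which these introns were chosen, so this count describes them and is no test. The reads were not scaled for depth or host gene expression, and the count was not made over all long introns or over those that rose. Grip1 encodes a scaffold of AMPA-type glutamate receptors, and its intron of 7724 nt (chr10:119415664-119423387) had a PSI of 3.09 and 5.78 in pEx5 knockdown and 5.37 and 5.56 in mEx5 knockdown, against 33.3 and 30.2 in pEx5 control and 22.2 and 41.9 in mEx5 control. It fell by 27.0 points (log-odds difference -2.26 ± 0.41 SE, limma adjusted p = 0.0313). The exon-exon reads were 204, 212, 141 and 119 in knockdown libraries, against 14, 15, 7 and 9 in control libraries. The upstream-end reads were 12, 22, 11 and 7 in knockdown against 4, 5, 3 and 6 in control libraries, and the downstream-end reads 1, 4, 5 and 7 against 10, 8, 1 and 7. Stx16, a syntaxin of the trans-Golgi network, was at 8.93 to 16.5 in knockdown and 42.9 to 59.1 in control libraries (adjusted p = 0.0147). Gprasp1 encodes a protein that sorts G-protein-coupled receptors to lysosomes, and its intron of 44124 nt on chromosome X was the longest called. Its PSI was 36.8 and 33.9 in pEx5 knockdown and 58.5 and 51.8 in mEx5 knockdown, against 77.6 and 73.9 in pEx5 control and 88.1 and 76.5 in mEx5 control, with 635 of 640 end reads downstream. It fell by 33.7 points (adjusted p = 0.00464), and a gene on the opposite strand overlaps it. The sorting nexin gene Snx13 was at 0.83 to 3.69 in knockdown and 10.9 to 14.1 in control libraries, and Lrba, a BEACH-domain gene of vesicle traffic, at 33.0 to 48.1 and 46.7 to 68.9 in the same order.

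Snrnp48 encodes a protein of the minor spliceosome, and its intron of 5183 nt (chr13:38303011-38308193) gave the lowest adjusted p of the named long introns. Its PSI was 4.04 and 3.98 in pEx5 knockdown and 3.33 and 2.79 in mEx5 knockdown, against 15.2 and 23.6 in pEx5 control and 13.5 and 14.6 in mEx5 control. It fell by 13.2 points (log-odds difference -1.67 ± 0.10 SE, limma adjusted p = 0.000432). The downstream-end reads were 28, 28, 27 and 21 in knockdown against 37, 52, 28 and 35 in control libraries, and the exon-exon reads ranged from 383 to 407 against 86 to 108.

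Smpd4, a sphingomyelinase gene, had an intron of 6438 nt (chr16:17632151-17638588) with a PSI of 4.74 and 2.67 in pEx5 knockdown and 5.37 and 6.46 in mEx5 knockdown, against 20.8 and 20.3 in pEx5 control and 25.3 and 18.8 in mEx5 control. The exon-exon reads were 191, 219, 141 and 123 in knockdown libraries, against 63, 53, 37 and 52 in control libraries. It fell by 16.5 points (limma adjusted p = 0.00427). Zc3h11a, which encodes a zinc finger protein of mRNA export, was at 23.5 to 26.8 in knockdown and 40.3 to 55.2 in control libraries in its first intron (adjusted p = 0.00648). Of its 1005 end reads 952 lay downstream. This intron is overlapped by 3 other genes on the same strand, whose reads cannot be told apart from its own by strand. The last intron of Ccdc136 was at 35.3 to 58.7 in knockdown and 88.9 to 100 in control libraries (adjusted p = 0.0342). Jdp2, a gene of AP-1 related transcription factors, was at 0 in all 4 knockdown libraries, against 24.0 and 14.3 in pEx5 control and 12.5 and 12 in mEx5 control, but from only 12 to 31 reads per library. Cxxc4, an inhibitor of Wnt signalling, was at 29.5 to 32.7 in knockdown and 35.1 to 48.8 in control libraries. The intron of Xist, the RNA of X inactivation, was at 75.8 to 82.9 in knockdown and 87.6 to 90.5 in control libraries; its antisense gene Tsix overlaps it, and reads of the pair cannot be told apart where strand is not used. Another gene on the same strand overlaps the Xist intron too.

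The median PSI of the 12 lower introns was 27.0 and 32.6 in pEx5 induction and 24.9 and 35.3 in mEx5 induction, 19.3 and 16.2 in pEx5 knockdown and 18.7 and 21.7 in mEx5 knockdown, and 43.4 and 40.9 in pEx5 control and 43.4 and 42.4 in mEx5 control libraries.

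A retained intron carries both of its ends, but most called introns were read mainly from one. A long intron was set down as read from one end where it had at least 20 end reads over all libraries and at least 90% of them lay at that end, thresholds chosen after the data had been seen. Of the 23 higher introns, 9 were read from the upstream end, 6 from the downstream end and 8 from both. Of the 12 lower introns, 1 was read from the upstream end, 6 from the downstream end and 5 from both. One-ended introns thus made up 65.2% of the higher and 58.3% of the lower introns, beside 29.8% of the 3819 long introns with enough end reads. By the deposited test of end balance, 1988 of the 13600 long introns differed between their ends in at least 1 library, and 32 of the 35 called introns were among them. The other 3 included Epb4.1l2 and Wdr76. Of all long introns, 9781 (71.9%) had fewer than 20 end reads over all libraries, while every called intron had at least 20. A difference between ends is harder to find in few reads, so these counts are not like for like.

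**Figure D3:**
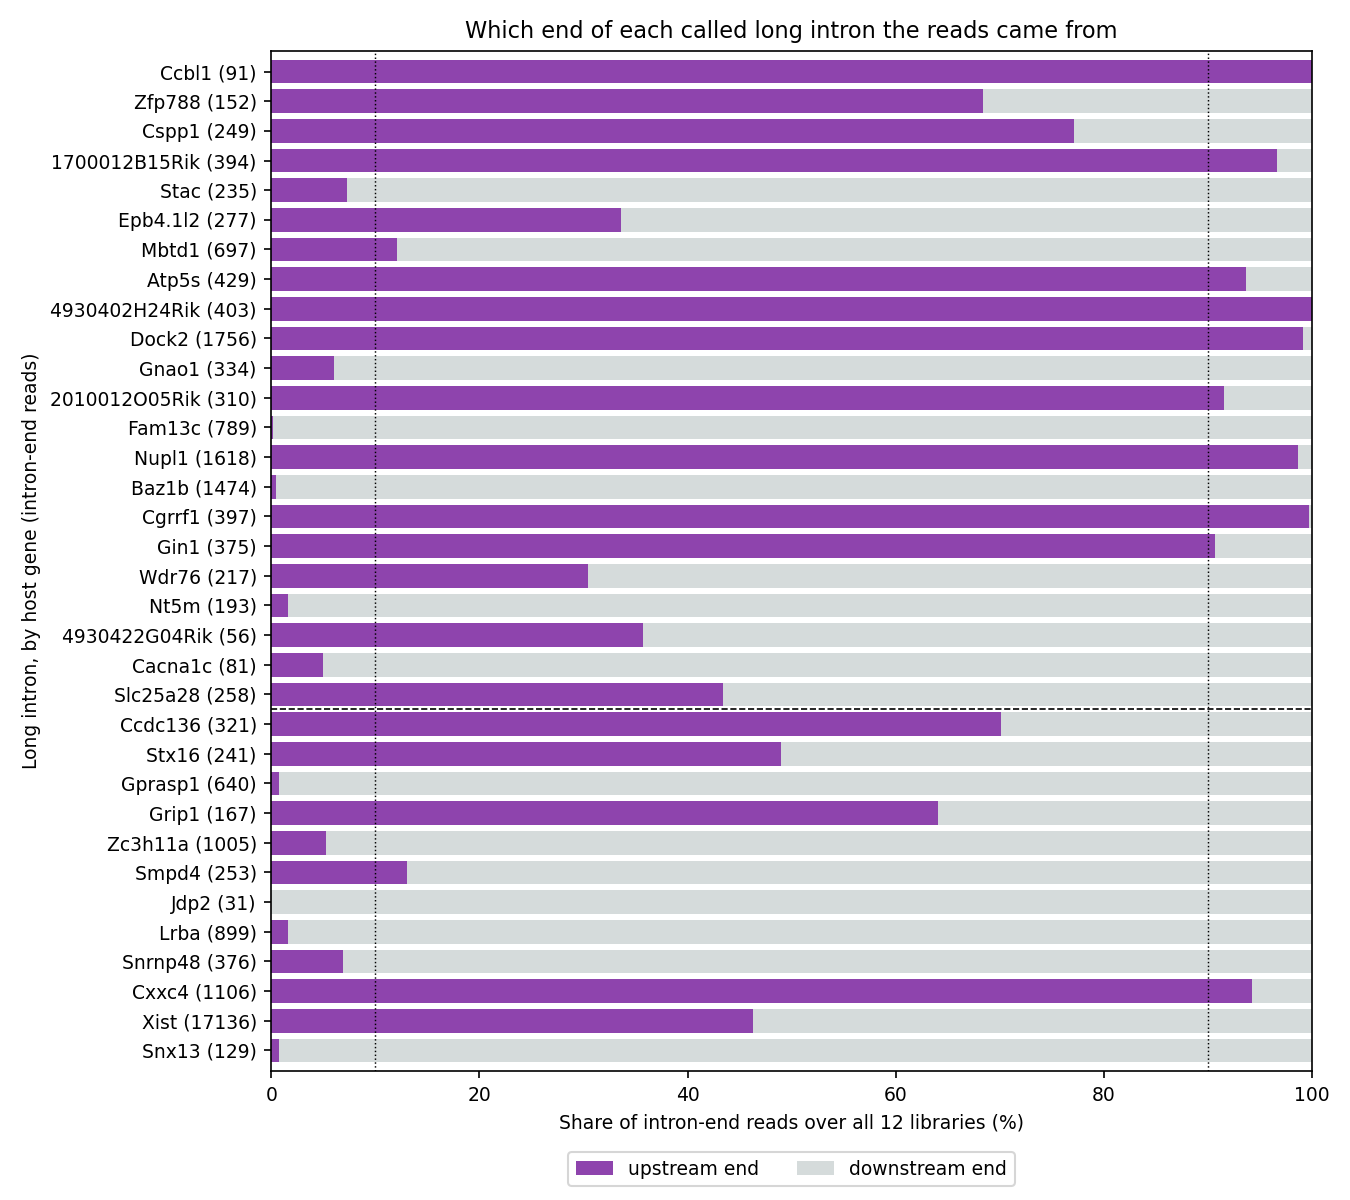
For each of 34 of the 35 called long introns the bar shows the percentage of intron-end reads at the upstream and at the downstream end, summed over the 12 libraries, with the number of reads in brackets; introns above the dashed line rose and those below it fell. Dotted lines mark 10% and 90%, outside which an intron was set down as read from one end.

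Over all placed long introns, annotated transcript ends and starts differed in share with the end that was read. A GENCODE transcript ended inside 283 of 726 placed long introns read from the upstream end (39.0%), 88 of 401 read from the downstream end (21.9%) and 756 of 2652 read from both ends (28.5%). A transcript started inside 152 of 401 long introns read from the downstream end (37.9%), 151 of 726 read from the upstream end (20.8%) and 645 of 2652 read from both ends (24.3%). Among the 23 higher introns a transcript ended inside 8 and started inside 4, and among the 12 lower introns inside 3 and 3, beside 19.9% and 19.3% of all placed long introns. The called introns were too few to show whether they share this split. Of the higher ones a transcript ended inside 3 of 9 read upstream, 2 of 6 read downstream and 3 of 8 read from both ends. It started inside 1 of 9, 1 of 6 and 2 of 8. Of the lower ones a transcript ended inside 1 of 1, 2 of 6 and 0 of 5 in the same order, and started inside 0 of 1, 2 of 6 and 1 of 5. The differences between these shares were not tested. Retention of a long intron cannot be told apart from use of such a start or end by the PSI alone where the reads come from one end.

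Exons inside the introns were set beside them. An exon tested in the same fit lay inside 7 of the 23 higher, 5 of the 12 lower and 2588 of all long introns (19.0%). A called exon lay inside 2 of the higher and 4 of the lower introns, beside 137 of all (1.01%). In all 6 the exon and the intron moved in the same direction. The exon-exon reads of the intron join its flanking exons only, so the exon and intron values share these reads. Their shared direction is therefore no test. In Grip1 the exon of 156 nt was included at 24.8 and 25.7 in pEx5 knockdown and 36.9 and 38.6 in mEx5 knockdown, against 94.3 and 93.8 in pEx5 control and 95.2 and 95.5 in mEx5 control, with 76.6 and 76.9 in pEx5 induction and 86.3 and 82.9 in mEx5 induction (knockdown difference of -63.2 points, limma adjusted p = 9.77e-06). In Smpd4 the exon of 87 nt was at 4.23 to 12 in knockdown and 62.9 to 68.5 in control libraries (-58.0 points, adjusted p = 0.000635). In both genes exon skipping and exon-exon reads across the intron were higher in every knockdown library than in every control.

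The other called exons changed less. The 63 nt exon of Snrnp48 was at 1.49 to 4.29 in knockdown and 10.4 to 23.0 in control libraries, and the 54 nt exon of Zc3h11a at 21.8 to 24.0 and 38.2 to 44.8 in the same order. In Gnao1, which encodes the G-protein subunit alpha-o of neurons, intron and exon rose together. The intron of 12952 nt (chr8:96474332-96487283) was at 27.6 and 32.4 in pEx5 knockdown and 25.3 and 16.8 in mEx5 knockdown, against 5.55 and 9.39 in pEx5 control and 3.69 and 5.36 in mEx5 control, with 314 of 334 end reads downstream (rise of 19.5 points, adjusted p = 0.0157). The exon of 154 nt was at 76.3 to 81.4 in knockdown and 53.5 to 63.6 in control libraries (rise of 20.2 points, adjusted p = 0.00204). In Epb4.1l2, a gene of the membrane skeleton, the intron of 6232 nt (chr10:25215398-25221629) was at 42.3 and 38.5 in pEx5 knockdown and 42.3 and 32.0 in mEx5 knockdown, against 11.5 and 8.59 in pEx5 control and 11.5 and 14.7 in mEx5 control (rise of 27.2 points, limma adjusted p = 0.00280). Its exon-exon reads were 15, 20, 15 and 17 in knockdown against 123, 117, 81 and 81 in control libraries, and its 54 nt exon was at 47.4 to 62.6 and 26.5 to 48.1 in the same order, with some overlap between lines.

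**Figure D4:**
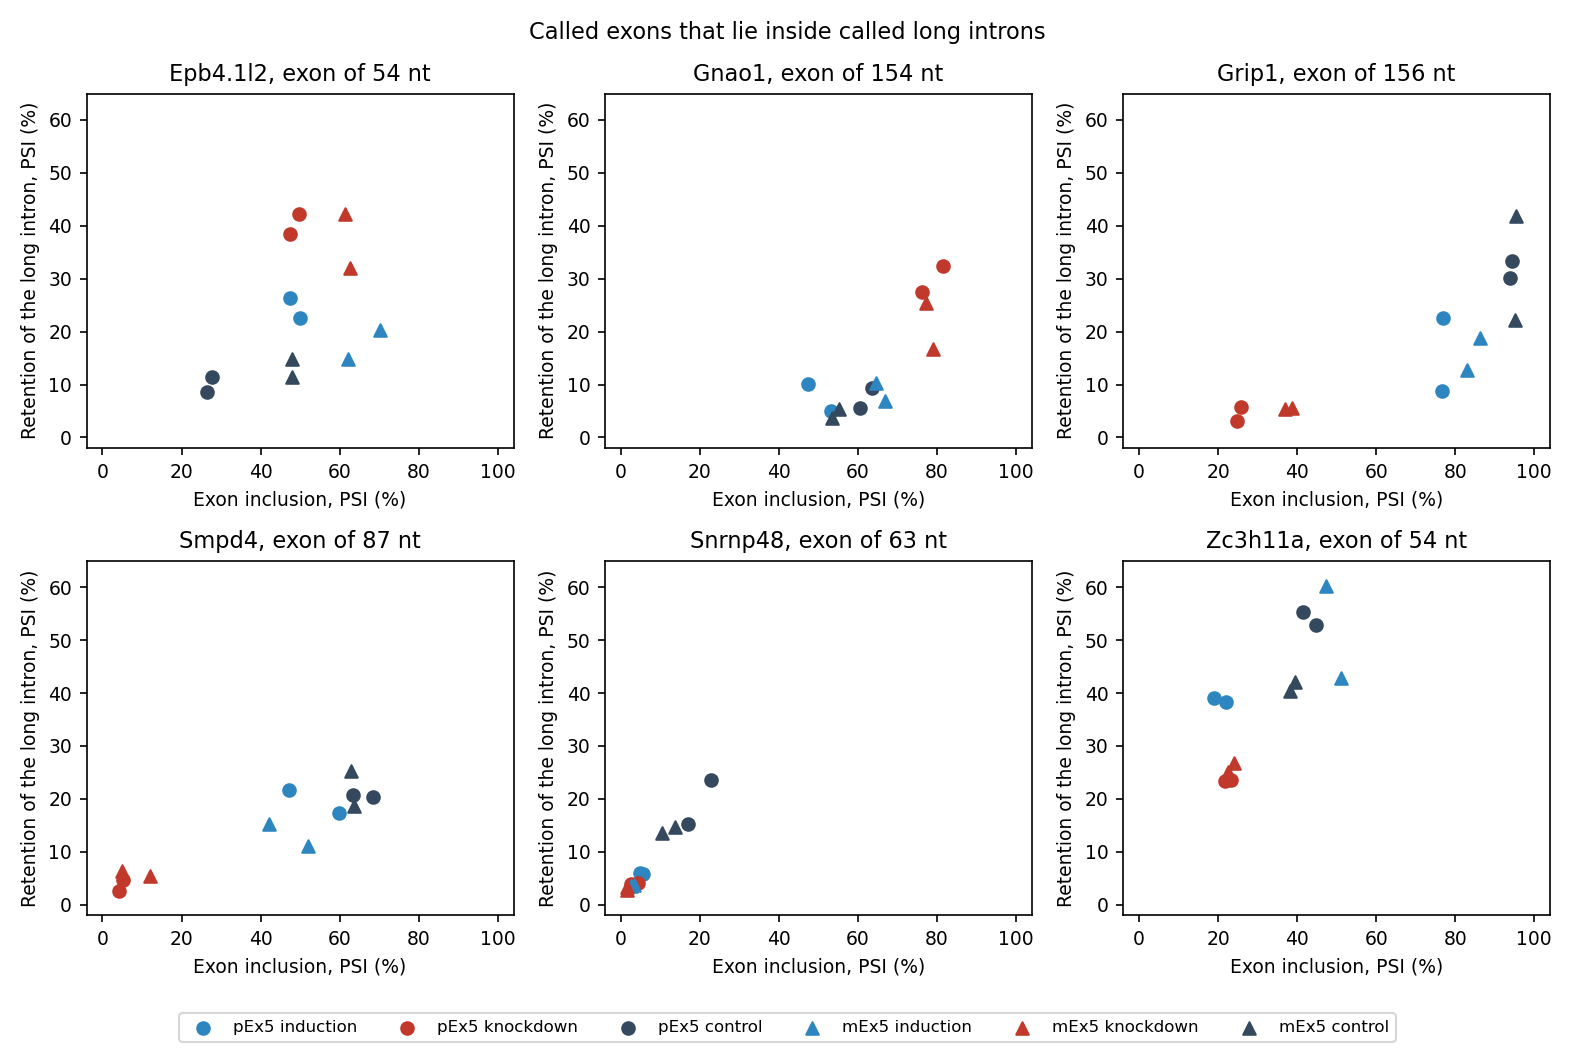
Inclusion of the called exon (horizontal, PSI in percent) against retention of the long intron that holds it (vertical, PSI in percent), with a point per library for 6 genes. Knockdown libraries lie at lower left of the controls in Grip1, Smpd4, Snrnp48 and Zc3h11a, and at upper right of the controls of the same line in Gnao1 and Epb4.1l2.

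Induction of the cDNA moved few long introns past the threshold. Induction and knockdown comparisons share the knockdown libraries, so their values are set side by side and not tested for overlap. In the pEx5 line limma called 4 long introns between induction and knockdown (0.0294%), against 0.0505% of shorter introns and 0.205% of all events. Mbtd1 fell to 16.2 and 15.1 in pEx5 induction, against 53.8 and 47.8 in pEx5 knockdown (-35.1 points, adjusted p = 0.0427). Smpd4 was at 17.3 and 21.7 in pEx5 induction, against 4.74 and 2.67 in pEx5 knockdown (15.8 points, adjusted p = 0.0383). Mbd5, a methyl-CpG-binding family gene, fell to 71.0 and 68.0 in pEx5 induction, against 87.4 and 89.0 in pEx5 knockdown (-18.7 points, adjusted p = 0.0129), and Ssbp3 rose to 12.1 and 14.3 in pEx5 induction, against 3.45 and 2.44 in pEx5 knockdown (10.2 points, adjusted p = 0.0385). These introns lay at 79.4 and 79.5 (Mbd5) and 8.11 and 9.94 (Ssbp3) in pEx5 control libraries.

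In the mEx5 line 2 long introns were called on induction (0.0147%), against 0.124% of shorter introns and 0.326% of all events. Ankrd10 rose to 25.3 and 26.7 in mEx5 induction, against 13.0 and 14.1 in mEx5 knockdown (12.5 points, limma adjusted p = 0.0123), while its mEx5 control libraries had 16.2 and 18.5. Jdp2 rose to 11.1 and 9.68 in mEx5 induction, against 0 and 0 in mEx5 knockdown (10.4 points, adjusted p = 0.0285). For Mbtd1 the mEx5 values were 12.5 and 23.5 in induction and 40.2 and 34.5 in knockdown (-19.3 points, adjusted p = 0.139), and for Smpd4 they were 11.1 and 15.3 in induction and 5.37 and 6.46 in knockdown (7.27 points, adjusted p = 0.345), so neither passed there.

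The introns called on knockdown took different levels in the induction libraries. Stac was at 7.17 and 4.84 in pEx5 induction and 7.04 and 2.44 in mEx5 induction, Gnao1 at 4.98 and 10.1 and at 6.96 and 10.2, and Wdr76 at 4.97 and 9.94 and at 3.14 and 2.70, and each of these values lay below every knockdown library of its intron. Snrnp48 stayed low, at 6.03 and 5.75 in pEx5 induction and 3.78 and 3.57 in mEx5 induction. Cgrrf1 stayed high, at 25.2 and 18.6 in pEx5 induction and 22.5 and 22.5 in mEx5 induction, with 16.5 to 28.0 in knockdown and 3 to 9.55 in control libraries. Fam13c was likewise at 37.2 to 44.8 in induction, 40.9 to 48.8 in knockdown and 19.8 to 32.7 in control libraries. Between induction and control libraries, limma called 3 long introns in the pEx5 line (0.0221%, against 0.0833% of all events), those of Jdp2, Slc9a8 and Snrnp48, and 2 in the mEx5 line (0.0147%, against 0.0311% of all events), those of Snrnp48 and Ssu72. Slc9a8 and Ssu72 are named here because the counts are small, after their values had been seen.

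Few long introns were called between the lines. Between pEx5 and mEx5 induction 2 long introns were called (0.0147%, against 0.0635% of all events). Jdp2 was at 0 and 0 in pEx5 induction and 11.1 and 9.68 in mEx5 induction (-10.4 points, limma adjusted p = 0.0438). Rtkn was at 0 and 0 in pEx5 induction and 11.1 and 11.1 in mEx5 induction (-11.1 points, adjusted p = 0.0488), from 10 to 30 reads per library and 9 end reads in all. Osbpl2, Ptpn2, Sumf1 and 8430427H17Rik, next by p, had differences under 5 points and were not called. A knockdown effect that differed between the lines was called in 0 long introns by limma (0.0%, against 0.00045% of all events), with 716 at an unadjusted p under 0.05. By adjusted p alone 2 passed, Casc4 and Osbpl2, with differences under 1 point. Slc44a1 and Nfkb1 were next, both at an adjusted p of 0.103.

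Genes that hold called introns did not move as a block in the authors' deposited table. Of 22 host genes of the higher introns found there, 3 were higher and 10 lower on knockdown at an adjusted p (FDR) under 0.05 in both lines, with a median log2 fold change of -0.15. Of the 12 host genes of the lower introns, 3 were higher and 3 lower. Hosts of any tested long intron were higher in 659 and lower in 1418 of 5340 (12.3% and 26.6%), beside 596 and 800 of 4248 genes with tested shorter introns only (14% and 18.8%). In the authors' deposited table the log2 fold change of Cspp1 was -0.94 in pEx5 and -0.70 in mEx5 cells, and that of Snrnp48 was 0.80 and 0.90. Of 18 factors known to act on long introns or on the elongation and cleavage of long transcripts, 1 was higher in both lines in the authors' deposited table (Ccnk, a cyclin of transcription elongation, at 0.22 and 0.23) and 9 were lower, among them Ewsr1 at -0.66 and -0.69. Of all 18600 genes in the authors' deposited table, 10.1% were higher and 13.7% lower in both lines. The part of these factors in the retention values was not tested.

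The authors' deposited table of event calls, whose criterion is not stated, marked 113 of the 13600 long introns on knockdown in pEx5 (0.831%) and 96 in mEx5 (0.706%), against 1.61% and 1.32% of shorter introns. On induction it marked 52 long introns in pEx5 (0.382%) and 58 in mEx5 (0.427%), against 0.821% and 1.21% of shorter introns. Of the 35 introns called here, the authors' deposited table marked 32 on knockdown in pEx5 and 30 in mEx5. Both sets of calls rest on the same libraries, so this overlap is no independent support.

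The long introns of highest PSI in control cells had a like PSI in all groups. The 6 with the highest control PSI, in Paqr3, St8sia3, Trpm2, Tsga10, Slit3 and Anks1b, had PSI values of 92.3 to 100 in all control and 83.6 to 100 in all knockdown libraries, and none was called. Their reads came almost wholly from one end: Trpm2, a cation channel gene, had 1655 end reads and Slit3, a gene for an axon guidance ligand, 1587, all downstream, while Paqr3 had 872 upstream and 7 downstream. A high PSI read from a single end does not show that the intron was kept whole. Genes on the opposite strand overlap the introns of Paqr3, St8sia3 and Fhit, and genes on the same strand also overlap that of Fhit. Of the 3 longest introns, 1 had more than a few end reads. The intron of 892220 nt in Immp2l had 2 end reads in all 12 libraries, and that of 415062 nt in Rbfox1, a splicing factor gene of neurons, had none. The 551319 nt intron of Fhit had a PSI of 11.9 and 6.36 in pEx5 knockdown and 22.4 and 15.1 in mEx5 knockdown, against 3.53 and 2.35 in pEx5 control and 1.85 and 12.6 in mEx5 control, which overlap and did not pass (limma adjusted p = 0.273). At the length threshold, the intron of 5000 nt in Smek1 had a PSI of 3.34 to 5.21 in knockdown and 2.38 to 4.02 in control libraries, and the intron just outside it, 1 nt shorter, in Phf20, lay between 0 and 0.65.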

How the data were processed

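Polyadenylated RNA of 12 N2A libraries was sequenced from stranded libraries with enlarged inserts, per the labels' protocols. The authors' splicing table, made with vast-tools per its event names and columns, held PSI in percent and a quality text with the reads of each event. The deposited intron rows gave raw upstream-end, downstream-end and exon-exon reads, a p-value of end balance, and the corrected inclusion and exclusion reads used here. PSI lay within 0.02 of these reads for 99.8% of values. A second deposited table held the authors' calls with group PSI as a score. The expression table held the authors' RPKM per group, their log2 fold changes and FDR, an adjusted p-value. The submitters' processing notes name Salmon 0.14.1, edgeR and mm10 without giving their roles. Only 287 of the 13600 introns (2.11%) coincided with GRCm38 introns, so no genome sequence was read by position.

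In the test, limma 3.58.1 in R 4.3.3 was fitted to logit inclusion, computed from the reads after adding 0.5 to each side, with precision weights with a variance floor of 0.01, with 1 coefficient per group and all 12 libraries. Events needed 10 reads in each library. The fit was tested on simulated data. Tables were handled with Python 3.11.15 and pandas 2.3.3. Named introns were the 12 largest rises and 12 largest falls called with the same sign in both lines, those called on induction or between lines, the 6 with the highest control PSI, the 3 longest and the 2 nearest to 5000 nt. The other introns called on knockdown were named after their values were seen. Members, lists and the fit were chosen with earlier results of these data known. The alternatives were other filters, weights, pseudocounts, thresholds, raw reads, a replicate block and each library left out. N2A markers Phox2a, Hand2, Chga, Stmn2 and Tubb3 were present in the authors' RPKM values, Gata3, Dbh and Th lay between 0.08 and 8.38 and Nefl at or near 0. Of other cell types, Olig2, Aqp4, Col1a1 and Col1a2 lay at or near 0, Ptprc at 0.05 to 0.10, Cd68 at 0.34 to 0.72, Pecam1 at 0.31 to 0.89 and Gfap at 0.55 to 2.97 RPKM. Gfap was higher in mEx5 knockdown than control cells in the authors' deposited table (log2 fold change 2.27, adjusted p = 0.0145), and its part in the results was not tested. Results for 1 of the 35 called introns and for some markers are not reported here.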

Additional observations from a re-analysis of the deposited data

Results flagged for a closer look

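A pair of long introns had a knockdown effect that differed between the lines by the interaction term of the limma fit, and both differences were small. In Casc4 (intron of 7749 nt, 424 to 1028 reads per library) PSI was 0.73 and 0.66 in pEx5 knockdown against 1.26 and 1.45 in pEx5 control, and 0.78 and 0.72 in mEx5 knockdown against 0.63 and 0.62 in mEx5 control. The effect in pEx5 minus that in mEx5 was -0.786 points (adjusted p = 0.044). In Osbpl2 (intron of 17509 nt) PSI was 0.48 and 0.41 in mEx5 knockdown and 0 in the other knockdown and all control libraries, a difference of -0.445 points (adjusted p = 0.044) that rests on 7 end reads over all 12 libraries.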

How the results depend on the processing

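None of the 35 introns called on knockdown changed direction under an alternative in which it was tested, which with at least 20 reads were 27 and with balanced ends 3. The replicate letters A and B did not pair libraries event by event: over 15 pairs of groups the correlation of their deviations was -0.0152 to 0.0158, against a threshold of 0.1. A correlation over events cannot show a shift shared by all introns, such as that between libraries A and B in the shares above. With the letter as a block the knockdown over both lines called 18 introns higher and 8 lower, 1 was called on induction in pEx5, 1 on induction in mEx5 and 0 between induced lines.

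Of the 23 introns called higher on knockdown, the count became 53 with a minimum of 5 points, 5 among introns of 10 kb or more, 51 when only events of PSI 5 to 95 were tested and 3 with balanced ends only. The 12 called lower became 7 at 15 points, 3 at 10 kb and 0 with balanced ends. The 18 called in pEx5 became 46, 3, 49 and 3 under 5 points, 10 kb, PSI 5 to 95 and balanced ends. The 8 called in mEx5 became 18 at 5 points, 5 at 15 points, 1 at 10 kb, 37 at PSI 5 to 95, 5 with raw junction reads and 2 with balanced ends. The 4 called on induction in pEx5 became 9 at 5 points, 1 at 10 kb, 1 without weights, 14 at PSI 5 to 95, and 0 with raw reads or balanced ends. The 2 called on induction in mEx5 became 7 at 5 points, 0 at 15 points, at 10 kb, with raw reads or with balanced ends, 16 at PSI 5 to 95, and 1 with at least 20 reads or a pseudocount of 1. The 2 called between induced lines became 0 at 15 points, at 10 kb, with 20 reads, a pseudocount of 1 or raw reads, 1 without weights or with balanced ends, and 4 at PSI 5 to 95. The 3 called between induction and control in pEx5 became 6 at 5 points, 1 at 10 kb, without weights or with raw reads, 11 at PSI 5 to 95 and 0 with balanced ends. The 2 in mEx5 became 0 at 15 points, without weights or with balanced ends, 1 at 10 kb, with a pseudocount of 1, raw reads or the block, and 6 at PSI 5 to 95. The 0 between control lines became 1 at 5 points. The cause of these changes was not tested beyond what each setting leaves out.

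Leaving out 1 library gave 15 to 22 introns higher and 6 to 10 lower on knockdown, 10 to 16 in pEx5, 4 to 11 in mEx5, 2 to 4 on induction in pEx5, 0 to 6 on induction in mEx5, 0 to 2 between induced lines 0 to 1 for the interaction, 1 to 4 between induction and control in each line and 0 to 3 between control lines; the lone library was taken to vary like the other groups. The count of higher introns was 15 without mEx5 knockdown A or pEx5 knockdown B, that of lower introns 6 without mEx5 knockdown B and 7 without pEx5 control A, mEx5 control B or pEx5 knockdown B. In pEx5 10 were called without pEx5 control A, in mEx5 4 without mEx5 knockdown A, and on induction in mEx5 0 without mEx5 knockdown A and 6 without mEx5 induction B. Between induction and control the count in pEx5 was 1 without pEx5 control A or B, and in mEx5 the count was 4 without mEx5 control A or B and 1 without either knockdown library of either line, either pEx5 induction library or mEx5 induction A. Between control lines 3 were called without mEx5 control B and 1 without pEx5 control A or either mEx5 induction library. Called in every such fit were 15 of the 35: Ccbl1, Cspp1, Stac, Epb4.1l2, Mbtd1, 4930402H24Rik, Gprasp1, Zc3h11a, Smpd4, Jdp2, Snrnp48, 2010012O05Rik, Cacna1c, Nupl1 and Wdr76. Depth limits introns such as Jdp2, whose shallowest library had 12 reads.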
